A study of Homo sapiens with 18 samples.

Results

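The malate-aspartate shuttle carries reducing equivalents from the cytosol into mitochondria, and its genes were followed here in multiple myeloma cell lines treated with an antisense oligonucleotide (gapmeR) against the long non-coding RNA NEAT1 or with a scrambled one. The 7 genes were the malate dehydrogenases MDH1 and MDH2, the aspartate aminotransferases GOT1 and GOT2, the 2-oxoglutarate and malate carrier SLC25A11 and the aspartate and glutamate carriers SLC25A12 and SLC25A13. They were taken by gene symbol from 62703 genes in the count tables, and each symbol matched 1 gene. MDH1 was chosen because it was higher in the libraries with more NEAT1 under all 3 line labels. Its difference between gapmeR labels is therefore given as a description, with no test, and the question asked of the data was whether its 6 partners moved with it.

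The series held 18 RNA-seq libraries of human myeloma lines, which the labels name AMO1, H929 and LP1. Under each name there were 3 libraries with the SCR GapmeR label (the scrambled control) and 3 with the gN1E GapmeR label (against NEAT1). No other genotype or treatment was given in the labels, and all groups had taken up the naked oligonucleotide from the medium for 48 h. Replicates carried letters, and nothing in the labels said that they were separate cultures, so that p-values measure only the spread between these libraries. Total counts per library ranged from 28061606 to 69937229. In AMO1 they were 53227560 to 66142827 under SCR and 28061606 to 49784737 under gN1E, without overlap. In LP1 they were 56542997 to 69937229 under SCR and 44091209 to 57247024 under gN1E. In H929 they were 34710995 to 54387667 under SCR and 52856172 to 59302536 under gN1E. The part of depth in the differences between gapmeR labels was not tested.

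In this shuttle, MDH1 oxidises cytosolic NADH while it turns oxaloacetate into malate, SLC25A11 takes the malate into the mitochondrion in exchange for 2-oxoglutarate, and MDH2 turns it back into oxaloacetate and makes NADH in the matrix. GOT2 then converts oxaloacetate into aspartate, SLC25A12 and SLC25A13 export the aspartate in exchange for glutamate, and GOT1 returns it to oxaloacetate in the cytosol. The cycle keeps glycolysis supplied with NAD and supplies cytosolic aspartate, a building block of nucleotides and proteins. NEAT1 is the RNA scaffold of paraspeckles, which are nuclear bodies.

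The libraries went against their labels in some respects. The names deposited with the counts exchange the gapmeR labels, and H929 with LP1, relative to the sample labels. Groups here follow the sample labels, and by the other names every gN1E minus SCR difference would have the opposite sign. NEAT1 was higher, not lower, in the libraries labelled gN1E under every line label. In CPM, which here are counts per 1000000 reads after scaling by the trimmed mean of M-values, the levels were between 75.7 and 90.8 for NEAT1 in the AMO1 libraries labelled SCR and between 473 and 553 in those labelled gN1E. The ranges were 72.7 to 79.8 against 464 to 554 under the H929 label, and 135 to 189 against 655 to 828 under the LP1 label. "Higher" below therefore means higher in the libraries labelled gN1E, which are those with more NEAT1. The libraries labelled H929 shared clone marks with AMO1. The immunoglobulin segment IGHV3-23 was between 1031 and 2110 CPM in all AMO1 and H929 libraries and had 0 reads in those labelled LP1, and the cyclin gene CCND2 was between 1532 and 1902 CPM in the former and between 1.24 and 2.02 in the latter. FGFR3 and NSD2, the genes activated by the t(4;14) translocation, were high only under the LP1 label, at 617 to 724 CPM and 1547 to 1705 CPM, against at most 1.48 and 267 CPM elsewhere. The line names are therefore used as labels only. All 10 plasma cell markers checked were at 1 CPM or above in every group, with summed levels from 12082 to 22277 CPM. Under the H929 label this sum was 21064 to 22277 CPM in the gN1E libraries and 18873 to 19866 CPM in the SCR libraries. The 5 T cell markers summed to between 9.46 and 31 CPM, with CD3D and CD2 under 1 CPM in every group. In AMO1, 3 of the 5 had a mean of at least 1 CPM, the highest at 23.4 CPM under SCR and 20.3 CPM under gN1E. In H929, 2 did, the highest at 8.75 and 8.26 CPM. In LP1, 2 did under SCR and 1 under gN1E, the highest at 14.5 and 12 CPM. The T cell sum was 28.8 to 31 CPM under SCR and 24.5 to 28.5 under gN1E in AMO1, 14.9 to 16.6 against 10.5 to 14.3 in LP1, and overlapped in H929. The 5 myeloid markers summed to between 0.238 and 0.632 CPM in AMO1 and H929 and between 3.58 and 9.6 CPM in LP1, where SCR (7.01 to 9.6) lay above gN1E (3.58 to 6.15). The 5 fibroblast markers summed to between 0.692 and 1.74 CPM, and the part of none of these lists in the results was tested.

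MDH1, the cytosolic malate dehydrogenase (ENSG00000014641.21), lies on the forward strand of chromosome 2 at chr2:63588609-63607197 of hg38 and was covered by 4834 to 13626 reads per library. Under the AMO1 label it stood at 138, 132 and 132 CPM in the SCR replicates A, C and D, and at 243, 252 and 240 CPM in the gN1E replicates A, C and D. Each gN1E library was well above each SCR library. The log2 fold change (gN1E minus SCR, with its standard error, SE) was 0.88 (SE 0.052, 95% interval 0.77 to 0.98, n = 3 against 3), a 1.84-fold higher level. Under the H929 label MDH1 was at 128, 125 and 128 CPM in the SCR replicates A, B and C, and at 207, 227 and 219 CPM in the gN1E replicates A, B and C. The groups were again far apart, with a log2 fold change of 0.76 (SE 0.048, 95% interval 0.67 to 0.86), or 1.70-fold. Under the LP1 label the SCR replicates A, B and D were at 147, 143 and 144 CPM and the gN1E replicates A, B and D at 185, 174 and 154 CPM. The groups did not overlap, but the lowest gN1E library was close to the SCR libraries, and the log2 fold change was 0.26 (SE 0.055, 95% interval 0.15 to 0.38), or 1.20-fold. That lowest library, replicate D, had the most NEAT1 of the LP1 libraries (828 CPM, against 655 and 667 CPM in replicates A and B). Groups lying apart with gN1E on top were found for 9.17% of the genes tested in AMO1, 12.2% in H929 and 7.42% in LP1, and since MDH1 was picked on this contrast nothing is read from it.

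The size of the MDH1 difference varied between line labels. In a joint fit of the 18 libraries, the log2 fold change was 0.63 higher in AMO1 than in LP1 (SE 0.075) and 0.53 higher in H929 than in LP1 (SE 0.075). Between AMO1 and H929 the gap was 0.096 (95% interval -0.06 to 0.25). By comparison, the log2 fold change of NEAT1 itself was 2.66 in AMO1 (SE 0.074), 2.74 in H929 (SE 0.068) and 2.14 in LP1 (SE 0.19).

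**Figure D1:**
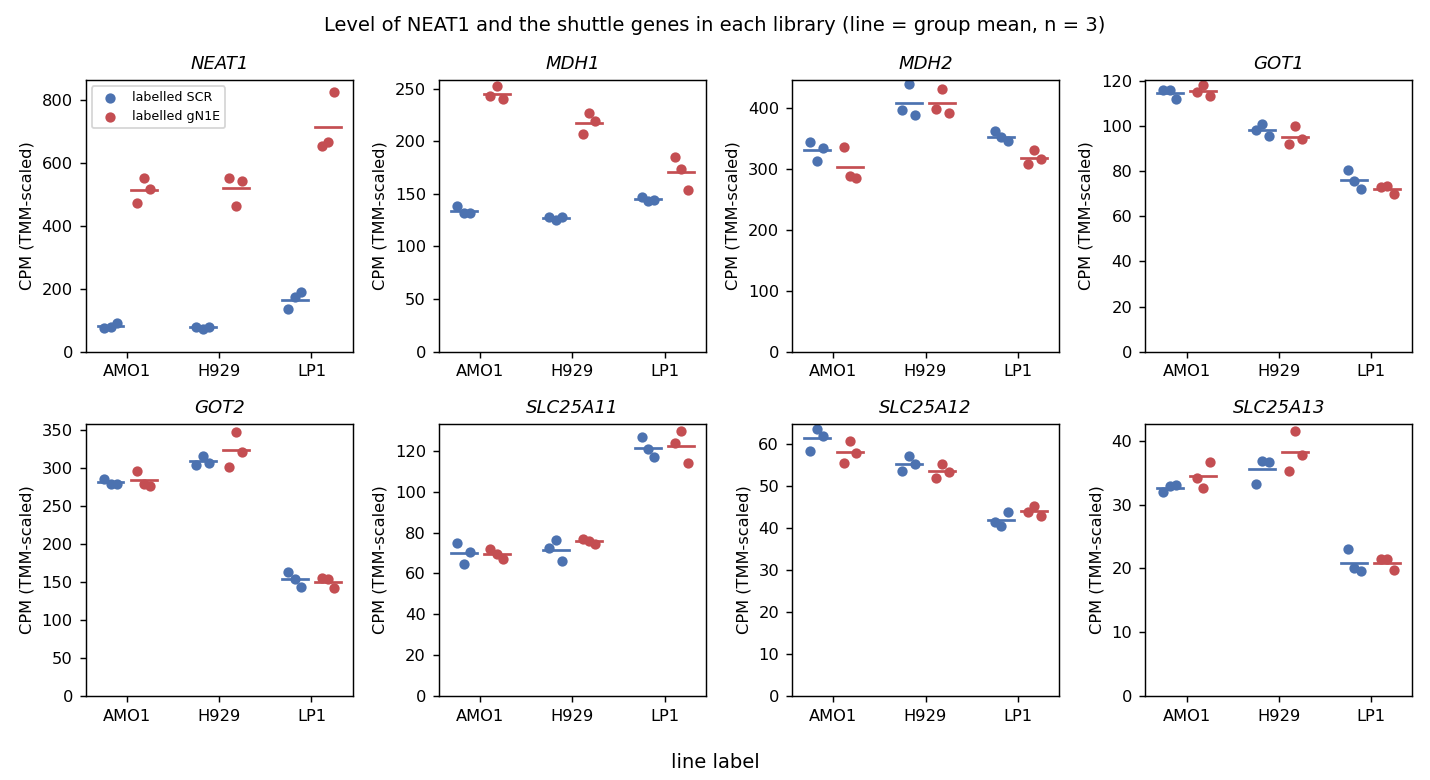
Level of NEAT1 and of the 7 shuttle genes in each of the 18 libraries, in CPM on a linear axis from 0, by line label and gapmeR label (blue SCR, red gN1E); points are libraries and short lines the means of 3. NEAT1 and MDH1 separate the gapmeR labels under all 3 line labels, whereas the points of the partners mix, apart from MDH2 under the LP1 label.

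No partner was called under any line label. Each of the 6 partners was tested under 3 line labels by edgeR (quasi-likelihood, p adjusted by Benjamini-Hochberg over all genes), and 0 of these 18 comparisons passed an adjusted p of 0.05. The smallest adjusted p was 0.197. The same test called 2.06% of the genes tested in AMO1, 5.47% in H929 and 1.43% in LP1. Without adjustment 1 of the 18 had a p under 0.05, as did 12.2%, 17.7% and 13% of all genes in AMO1, H929 and LP1, and limma-voom and DESeq2 also called 0. Of the 18 log2 fold changes 9 were above 0 and 9 below. Taking all 95% intervals together, they reached from -0.26 to 0.22, which corresponds to levels between 0.84 and 1.16 times those under the SCR label.

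MDH2, the mitochondrial counterpart of MDH1 (ENSG00000146701.12, chr7:76048051-76067508), had the smallest adjusted p of the partners under the LP1 label. Under the LP1 label it was at 362, 352 and 346 CPM in the SCR replicates A, B and D and at 308, 331 and 316 CPM in the gN1E replicates. All gN1E libraries were below all SCR libraries, a pattern shown by 10.6% of the genes tested there. The log2 fold change there was -0.13, with an SE of 0.046 and an adjusted p of 0.197 by edgeR. Under the AMO1 label MDH2 was at 345, 313 and 334 CPM in the SCR replicates A, C and D and at 337, 288 and 285 CPM in the gN1E replicates. Replicate A of gN1E lay among the SCR libraries while the others were below them. MDH2 as a whole differed by -0.12 on the log2 scale (SE 0.064, adjusted p = 0.467 by edgeR). Within each replicate letter of AMO1 it was lower under gN1E. The same test with the letter as a block gave -0.13, with an adjusted p of 0.0917. Under the H929 label the SCR libraries were at 397, 439 and 388 CPM and the gN1E libraries at 399, 432 and 392 CPM, and the log2 fold change was -0.013, SE 0.052.

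The aminotransferases showed no called difference. GOT1, the cytosolic enzyme (ENSG00000120053.12, chr10:99396870-99430624, reverse strand), was at 116, 116 and 112 CPM in the AMO1 SCR libraries and at 115, 118 and 113 CPM in the gN1E libraries, which is a log2 fold change of 0.01, SE 0.053. Its log2 fold changes were -0.056 under the H929 label and -0.058 under the LP1 label, with adjusted p of 0.615 and 0.691, and the groups overlapped in all 3 lines. GOT2, the mitochondrial enzyme (ENSG00000125166.13, chr16:58707131-58734342, reverse strand), was at 286, 279 and 279 CPM in AMO1 under SCR and at 296, 279 and 277 CPM under gN1E. Under the H929 label it was at 304, 316 and 307 CPM and at 302, 348 and 321 CPM, and under the LP1 label at 163, 154 and 143 CPM and at 155, 154 and 142 CPM. Its log2 fold changes were 0.016, 0.052 and -0.0095, with an SE of about 0.05 for each and an overlap between groups.

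The same held for the carriers. SLC25A11 (ENSG00000108528.14, chr17:4937130-4940053, reverse strand), which exchanges malate for 2-oxoglutarate, ranged from 64.4 to 75.1 CPM in the AMO1 SCR libraries and from 67.3 to 71.9 CPM in the gN1E libraries. Its log2 fold changes were -0.007 in AMO1, 0.07 in H929 and 0.035 in LP1, with adjusted p of 0.981, 0.548 and 0.834. SLC25A12, also called aralar (ENSG00000115840.14, chr2:171783405-171999859, reverse strand), had log2 fold changes of -0.078 in AMO1 (SE 0.063), -0.061 in H929 (SE 0.052) and 0.089 in LP1 (SE 0.056). In AMO1 it was lower under gN1E within each replicate letter, and edgeR with the letter as a block gave an adjusted p of 0.502. SLC25A13, also called citrin (ENSG00000004864.14, chr7:96120220-96322147, reverse strand), had log2 fold changes of 0.081, 0.088 and 0.024 in AMO1, H929 and LP1. It was the least covered of the 7 genes, at 832 to 2347 reads per library, and its 95% intervals were the widest of the partners in H929 and LP1, reaching from -0.04 to 0.22 and from -0.13 to 0.18. For both carriers the libraries of the gapmeR labels overlapped in every line.

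**Figure D2:**
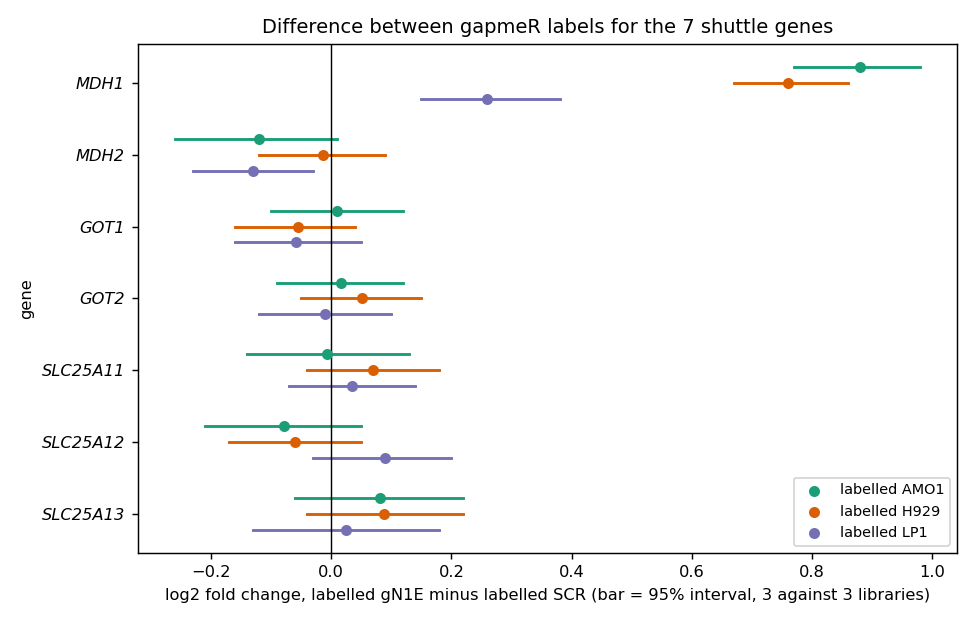
Log2 fold change of each shuttle gene between libraries labelled gN1E and SCR, with its 95% interval, by line label (3 against 3 libraries each). MDH1 lies at 0.88, 0.76 and 0.26, and the intervals of all partners stay between -0.26 and 0.22.

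No partner was called for a difference in response between lines either. Of the 18 tests of a difference between the effects of 2 lines (6 partners, 3 pairs of lines, edgeR's quasi-likelihood test in the joint fit), 0 passed an adjusted p of 0.05 and 0 had an unadjusted p under 0.05, and limma-voom also called 0. The largest gaps were -0.15 for SLC25A12 between AMO1 and LP1 (95% interval -0.31 to 0.01, adjusted p = 0.513) and 0.15 for MDH2 between H929 and LP1 (95% interval -0.02 to 0.32, adjusted p = 0.556). Over all genes this test called 0.741% for AMO1 against LP1 and 0.874% for H929 against LP1. For AMO1 against H929 it called 0 of 26436 genes, with 1771 at an unadjusted p under 0.05 and 0 by limma-voom. At that unadjusted p there were 2820 genes for AMO1 against LP1 and 2664 for H929 against LP1. The 196 calls for AMO1 against LP1 became 122 without SCR replicate D of AMO1. The 231 for H929 against LP1 became 151 without SCR replicate A of LP1, 153 without SCR replicate A of H929 and 140 without gN1E replicate B of H929. For AMO1 against H929 there were 5 calls without SCR replicate C or gN1E replicate A of AMO1. No partner was called in any of these fits.

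With MDH1 higher and MDH2 not, the share of MDH1 in the RNA of both malate dehydrogenases differed between the gapmeR labels. Protein was not measured. Levels per length were used for this, as CPM per kilobase of annotated exons. MDH1 made up 22.8% ± 0.634 (SD, n = 3) of the sum of MDH1 and MDH2 in the AMO1 libraries labelled SCR and 37.2% ± 2.39 in those labelled gN1E. The share went from 18.6% ± 1.18 to 28% ± 0.834 under the H929 label and from 23% ± 0.26 to 28.1% ± 2.17 under the LP1 label, and the ranges of the gapmeR labels did not overlap in any of them. This shift contains the difference by which MDH1 was chosen and is not a separate result. The share of GOT1 in the sum of GOT1 and GOT2 does not contain MDH1, and it was 38.7% ± 0.433 against 38.6% ± 0.95 in AMO1, 32.9% ± 0.416 against 31.3% ± 0.635 in H929 and 43.4% ± 0.318 against 42.6% ± 0.62 in LP1. The share of SLC25A12 in the sum of both aspartate carriers was 53.2% ± 0.712 against 50.5% ± 2.26, 48.4% ± 0.866 against 45.9% ± 1.26 and 54.9% ± 2.68 against 56% ± 0.694. In H929 both shares were lower in all 3 gN1E libraries than in all 3 SCR libraries, by less than 3 percentage points, and they were not tested. How many single genes lay apart there in this direction, with gN1E below SCR, was not counted. In the opposite direction, with gN1E on top, 12.2% of those tested did.

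The order of the genes by level per length was much the same in the libraries labelled SCR. In AMO1, MDH2 led at 90.8 ± 4.46 CPM per kb (SD, n = 3), followed by GOT2 at 75 ± 0.97, GOT1 at 47.3 ± 0.903, SLC25A11 at 28.4 ± 2.17, MDH1 at 26.8 ± 0.677, SLC25A12 at 10 ± 0.43 and SLC25A13 at 8.8 ± 0.16 CPM per kb. SLC25A11 (26.1 to 30.4) and MDH1 (26.4 to 27.6) overlapped in this order, while the other neighbours did not. Under the gN1E label MDH1 stood in place 3 at 49.1 ± 1.17 CPM per kb, where it overlapped GOT1 at 47.5 ± 1.07. In the H929 libraries the order under SCR was that of AMO1 except that SLC25A13 (9.61 ± 0.545) came before SLC25A12 (9.02 ± 0.297), and these overlapped. In LP1, SLC25A11 followed MDH2 at 49.2 ± 2 CPM per kb, ahead of GOT2 at 41 ± 2.7, GOT1 at 31.4 ± 1.79 and MDH1 at 28.9 ± 0.428 CPM per kb. The exon length joins the exons of all annotated transcripts (4990 bases for MDH1 and 2424 for GOT1), which lowers the value of a gene with many rarely used exons.

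**Figure D3:**
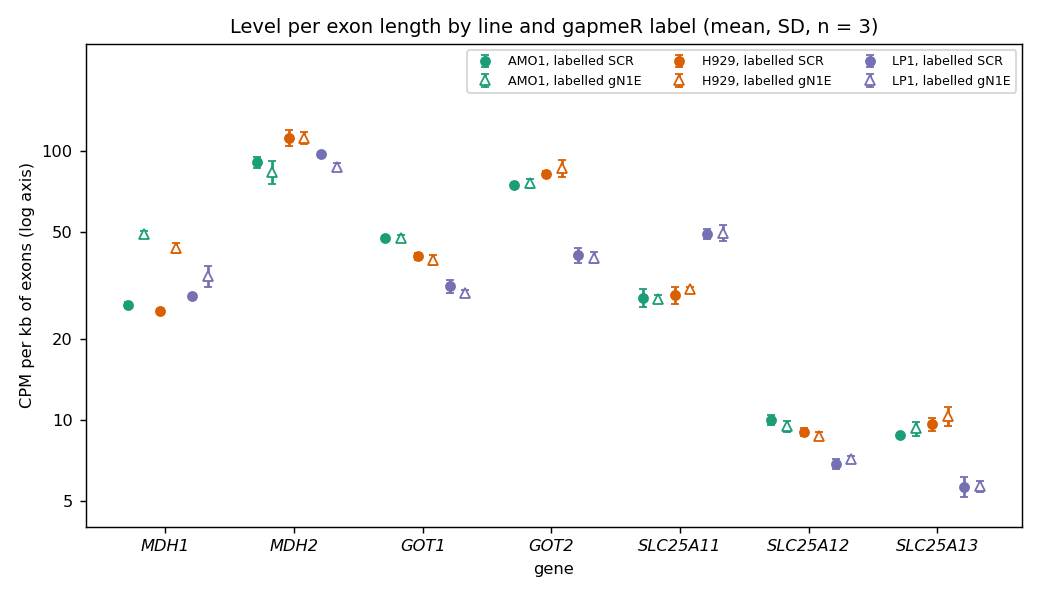
Level of each shuttle gene in CPM per kb of exons on a log axis, as mean and SD of 3 libraries, by line label (colour) and gapmeR label (filled circles SCR, open triangles gN1E). In the SCR libraries MDH2 is highest in every line (90.8 to 112 CPM per kb), the aspartate carriers are lowest, and GOT2 is lower and SLC25A11 higher under the LP1 label.

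The levels of the partners under the SCR label, which the choice of MDH1 did not use, were tested between line labels. GOT2 was 1.83-fold higher in AMO1 than in LP1 (log2 difference 0.87, SE 0.054, adjusted p = 4.8e-16 by edgeR's quasi-likelihood test in the joint fit) and 2.01-fold higher in H929 than in LP1 (1.01, SE 0.054). SLC25A11 went the other way, with log2 differences of -0.80 between AMO1 and LP1 and -0.76 between H929 and LP1 (SE 0.06 for both). SLC25A13 was higher than in LP1 by 0.64 in AMO1 and by 0.77 in H929, GOT1 by 0.59 and 0.37, and SLC25A12 by 0.55 and 0.40 on the log2 scale. In all, 5 of the 6 partners passed between AMO1 and LP1 and 6 of 6 between H929 and LP1, among 70.4% and 67.4% of all genes tested. Between AMO1 and H929, 3 of the 6 passed, among 32.5% of all genes, namely MDH2 (-0.30, adjusted p = 0.000106), GOT1 (0.22, adjusted p = 0.000599) and SLC25A12 (0.15, adjusted p = 0.0325). The last missed the threshold when any 1 of 4 SCR libraries of these lines was left out, with adjusted p of 0.0732 to 0.135.

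For MDH1, whose SCR levels are part of the contrast it was chosen on, the differences between lines are given with no test. On the log2 scale they were 0.073 between AMO1 and H929, -0.11 between AMO1 and LP1 and -0.19 between H929 and LP1. Scaling bears on these values, because the trimmed mean of M-values moved all genes by -0.22 between AMO1 and LP1 and by -0.24 between H929 and LP1 relative to scaling by total counts alone. With total counts alone the differences from LP1 turned to 0.11 for AMO1 and 0.06 for H929. The MDH2 difference between AMO1 and LP1, -0.097, likewise turned to 0.13 and passed in that direction (adjusted p = 0.028 by edgeR in the joint fit). The other 5 genes kept their direction.

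Genes that surround the shuttle in metabolism were read from 8 lists, and genes near MDH1 on chromosome 2 from 1 more. These lists held 86 genes besides the shuttle. Of these, 0 of 77 tested passed in AMO1, 9 of 76 in H929 and 0 of 78 in LP1, where 2.06%, 5.47% and 1.43% of all genes did. In AMO1, where libraries with the same letter deviated together, a fit with the letter as a block called 3 of the 77 (ALDOA at -0.36, SLC25A22 at -0.32 and GPT2 at 0.18 on the log2 scale) and 1394 genes in all in place of 473. None of the 6 partners passed in that fit, where MDH2 had the smallest adjusted p at 0.0917. At an unadjusted p under 0.05 there were 5 of the 77 list genes in AMO1, 21 of the 76 in H929 and 7 of the 78 in LP1, beside 12.2%, 17.7% and 13% of all genes. At an adjusted p under 0.05 limma-voom called 0 in AMO1 and in LP1, and DESeq2 called 1 in AMO1 and 0 in LP1. AMO1 also had 1 call with library size only, with no filter, in the joint fit, and without SCR replicate C or gN1E replicate A. LP1 had 2 calls with no filter and 1 without SCR replicate D.

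All 9 calls of the main fits thus came from the H929 label, and each was smaller than the MDH1 difference. Of the 17 genes of the TCA cycle, 1 was higher and 1 lower. IDH3G, a regulatory subunit of NAD-dependent isocitrate dehydrogenase, was higher by 0.27 on the log2 scale (SE 0.063, adjusted p = 0.00917), and IDH2, the mitochondrial NADP-dependent enzyme, stood at -0.28 (SE 0.075, adjusted p = 0.0234). The median over the list was 0.029, against -0.0096 over all genes. None of the 3 genes of the glycerol phosphate shuttle, the other route for cytosolic NADH, passed in any line (medians 0.017, 0.098 and 0.04 in AMO1, H929 and LP1). Among genes of cytosolic NADH turnover, 1 of 4 passed, the lactate dehydrogenase LDHA, at -0.24 (SE 0.066, adjusted p = 0.0366). Among 14 glycolysis genes, PFKP, the platelet type of phosphofructokinase, passed at 0.19 (SE 0.055, adjusted p = 0.0485). LDHA lost the threshold when any of 4 of the 6 libraries was left out and PFKP when any of 5 was.

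Of the remaining calls, 4 concerned amino acids. ASS1, which joins aspartate to citrulline, was the only one of 9 tested genes of aspartate use to pass (0.22, adjusted p = 0.0177). SLC1A5, a glutamine carrier of the plasma membrane, was the only one of 7 genes of glutamate supply and transport, at 0.26 (adjusted p = 0.000918, 675 CPM against 560 CPM on average). Among 6 tested genes akin to the shuttle enzymes by family or only by type of reaction, 2 passed. GPT2, the mitochondrial alanine aminotransferase, rose by 0.21 (adjusted p = 0.00828) and BCAT1, the cytosolic branched-chain aminotransferase, by 0.22 (adjusted p = 0.0103). No gene for malate and citrate handling passed, of 9 tested. Without gN1E replicate B, of these 9 calls only that of SLC1A5 stayed under 0.05. The lists gave 5 calls without SCR replicate A, where BCAT1, IDH2, LDHA and PFKP were lost. Leaving out SCR replicate C lost ASS1, IDH3G, PFKP and UGP2, a neighbour of MDH1.

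No gene around MDH1 was called higher. WDPCP, a ciliogenesis gene, overlaps MDH1 on the opposite strand, exons included, but the counting used the strand. Its log2 fold changes were -0.0033 in AMO1 (SE 0.076), 0.094 in H929 (SE 0.07) and 0.20 in LP1 (SE 0.1, adjusted p = 0.425). UGP2, 234 kb away, was the single neighbour to pass, and it was lower (-0.23 in H929, SE 0.054, adjusted p = 0.00931). The median log2 fold change of the neighbours tested was -0.018 in AMO1 (7 genes), -0.17 in H929 (7 genes) and 0.015 in LP1 (8 genes). The counts held 8 pseudogenes named after MDH1 or GOT2. MDH1P1 and MDH1P2 had at most 4 and 2 reads in any library, and GOT2P2, GOT2P3 and GOT2P6 at most 22, 16 and 44, and how many reads fit both a gene and a copy was not tested.

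The genes whose pattern was most like that of MDH1 came from outside the shuttle. Likeness was Pearson's r over the 18 libraries of log2 CPM centred within each line label, for 8882 genes at a mean log2 CPM of at least 3 in every line. Since the libraries fall into 2 groups by NEAT1, r mostly compares the gaps between these groups in the 3 lines. The highest values were 0.988 for ZWILCH, a kinetochore gene, 0.987 for FBXL5, a ubiquitin ligase subunit that senses iron, 0.984 for MAN1A1, a mannosidase of the Golgi, 0.983 for ABCC4, an efflux transporter, and 0.983 for LRBA, a vesicle trafficking gene. The log2 fold changes of ZWILCH were 1.04, 0.95 and 0.40 in AMO1, H929 and LP1, and those of MAN1A1 0.67, 0.60 and 0.15. NEAT1 stood at rank 150 with 0.926. Among the partners r was 0.48 for SLC25A13, 0.30 for GOT2, 0.26 for SLC25A11, -0.16 for GOT1, -0.36 for SLC25A12 and -0.39 for MDH2. These values moved with the scaling, and with library size only they were 0.33, 0.05, 0.03, -0.43, -0.41 and -0.70 in the same order.

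MDH1 and 4 of these 5 genes also share a short sequence with NEAT1. The sequence and these genes were both picked on fold changes that include those of AMO1, so this overlap is a description from which nothing is read. Of the 22757 stretches of 11 bases in NEAT1, the one whose carriers (genes with it on their transcribed strand) had the highest AMO1 log2 fold changes, as their mean above that of all genes times the square root of their number, was TTGTGGTCACT, in the single exon of NEAT1 at chr11:65425853-65425863. MDH1 holds this stretch 1 time, at chr2:63592276-63592286, in an intron 1302 bases past the end of one counted exon and 838 bases before the next. None of the 6 partners holds it. Of all AMO1 genes compared 98.1% lack it as well, and since MDH1 and the stretch were both picked on these fold changes, nothing is read from the partners' lack of it. The sequences are shown to let MDH1 be set beside NEAT1 and its partners, read 5′ to 3′ on the transcribed strand of hg38 with 30 bases each. Capitals mark the stretch in NEAT1 and MDH1, and in the partners the longest run they share with the 21 bases of NEAT1 centred on it.
NEAT1, chr11:65425844-65425873, forward strand: aataaccttTTGTGGTCACTgtaaaattaa
MDH1, chr2:63592267-63592296, forward strand: ttggaactaTTGTGGTCACTaagtttccag
MDH2, chr7:76057135-76057164, forward strand: gctcagttcgCTTTTGTGGaaacctggagg
GOT1, chr10:99410090-99410119, reverse strand: tcagtaaggaTCACTGTAAAtaacagagta
GOT2, chr16:58715462-58715491, reverse strand: caatcctaacTCACTGTAActttgtactcc
SLC25A11, chr17:4939441-4939470, reverse strand: gtgcagccccaGGTCACTGcttgactgtca
SLC25A12, chr2:171837128-171837157, reverse strand: catgcttactCCTTTTGTGGaggagaactt
SLC25A13, chr7:96281540-96281569, reverse strand: tctgaattcTGGTCACTGTAtgttaaaact

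The runs of the partners were 9 bases in MDH2 and GOT2, 10 in GOT1, 8 in SLC25A11 and 10 in SLC25A12, which has a second run of 10 in an intron. SLC25A13 shares 11 bases in a row, as many as MDH1, but they are bases 9 to 19 of the 21, where MDH1 has bases 6 to 16. The runs of MDH2, GOT1, GOT2 and SLC25A13 lie in introns, and those shown for SLC25A11 and SLC25A12 lie in counted exons.

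**Figure D4:**
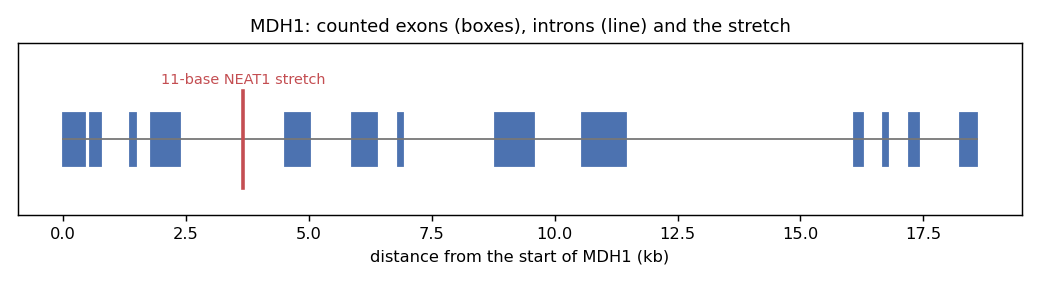
Map of MDH1 from its start (left) to its end, in kb along the gene, with the 13 blocks of counted exons as boxes, introns as a line and the 11-base stretch shared with NEAT1 as a red mark. The stretch lies in an intron, 3667 bases from the start of a gene of 18589 bases.

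The genes most like MDH1 showed the same sequence in part. FBXL5, MAN1A1, ABCC4 and LRBA hold the whole stretch, while ZWILCH lacks it and shares 14 bases that overlap it. In the lines below, with the same window and strand rule, capitals mark the longest run shared with the 21 bases of NEAT1, of 14 bases in ZWILCH, 11 in FBXL5, 13 in MAN1A1, 12 in ABCC4 and 12 in LRBA.
ZWILCH, chr15:66546873-66546902, forward strand, exon: ttctttctACCTTTTGTGGTCAacttttaa
FBXL5, chr4:15625447-15625476, reverse strand, exon: ctttgcgtaTTGTGGTCACTcattttgttg
MAN1A1, chr6:119233931-119233960, reverse strand, intron: agatattaTTGTGGTCACTGTccagctctt
ABCC4, chr13:95155442-95155471, reverse strand, intron: ggaagatgcTTGTGGTCACTGaggtatgga
LRBA, chr4:150312132-150312161, reverse strand, exon: aatgggtacTTTGTGGTCACTcaattcaaa

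The stretch was found in 222 of the 11433 AMO1 genes at an average log2 CPM of at least 2, or 1.94%, and in 0.708% of those whose span, like that of MDH1, is between 10 and 40 kb. Of the 222 genes, 112 (50.5%) were higher at an adjusted p under 0.05 and 1 was lower, compared with 2.01% higher among genes without it. MDH1 ranked at place 15 of the 222 by fold change. These AMO1 values selected the stretch and are a description only. In the H929 libraries 146 of 238 carriers (61.3%) were higher against 5.55% of the other genes. In the LP1 libraries 40 of 239 (16.7%) were, against 0.865%. Neither set of libraries was used to select the stretch. However, the H929 libraries shared clone marks with AMO1, and 0 of 26436 genes were called for a difference in effect between them. Under the SCR label 32.5% of these genes were called for a difference in level between them. How far the H929 share repeats the AMO1 values was not tested, and it is a description as well. The LP1 count was 21 without SCR replicate A, 22 without SCR replicate B and 24 without gN1E replicate B. Genes that carry the stretch only on the strand opposite to transcription were higher in 5.23%, 9.44% and 1.12% of cases in AMO1, H929 and LP1. Among carriers with the stretch in introns only, as in MDH1, 47.9%, 60% and 15.8% were higher, and among those with it in a counted exon 66.7%, 69.7% and 22.2%. Carriers were long genes, with a median span of 129 kb in AMO1, 133 kb in H929 and 135 kb in LP1. Genes without the stretch on the transcribed strand had medians of 30, 30.2 and 31.4 kb. Those with it on the opposite strand only had medians of 136, 142 and 128 kb. The part of gene length in these shares was not tested. The part of the stretch in the MDH1 difference was not tested either, and the sequence of the gapmeR was not used here.

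**Figure D5:**
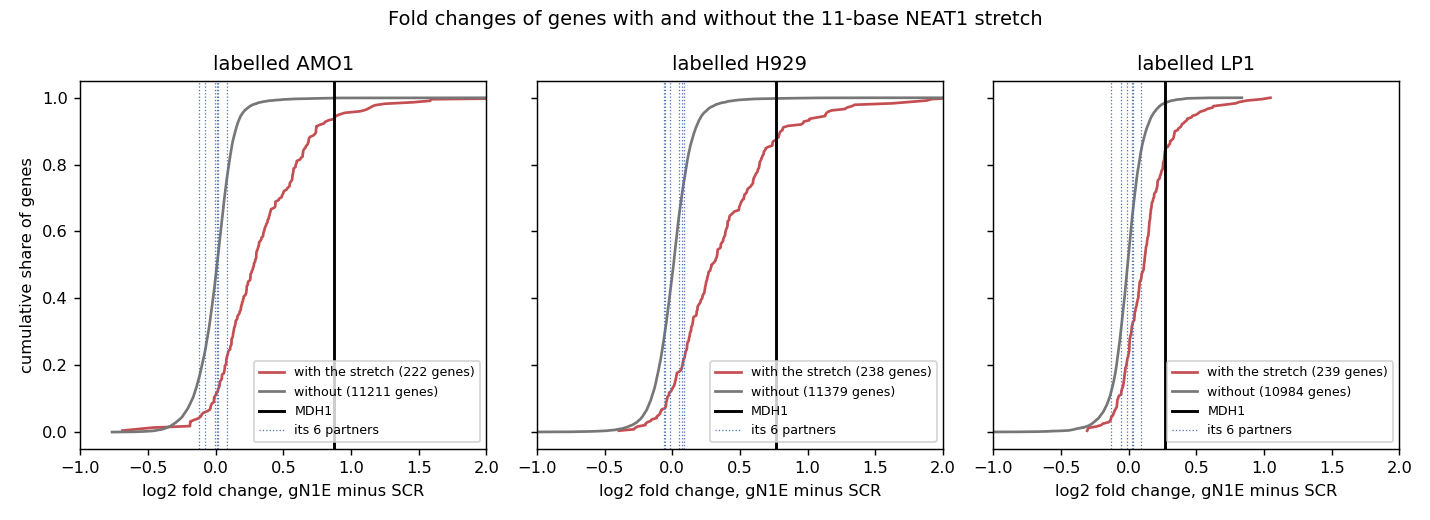
Cumulative share of genes by log2 fold change (gN1E minus SCR; axis drawn from -1 to 2), for genes with the 11-base NEAT1 stretch on their transcribed strand (red) and all others (grey), in the 3 line labels; the solid line marks MDH1 and dotted lines its 6 partners. Carriers lie to the right of the other genes, with medians of 0.28, 0.30 and 0.11 against 0.01, 0.01 and -0.01. The partners lack the stretch, and nothing is read from where they lie.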

How the data were processed

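The authors aligned the reads to hg38 with STAR 2.7.10a and counted read pairs by strand over exons with featureCounts 1.6.4 on GENCODE release 43, and deposited raw counts per gene. The names inside the tables exchange the gapmeR labels, and H929 with LP1, relative to the sample labels; groups followed the labels. Symbols matched 62639 of 62703 genes. In each line, genes that reached 10 reads in 1 or more libraries were tested with edgeR 4.0.16 (TMM, robust quasi-likelihood test, Benjamini-Hochberg threshold 0.05). Differences between lines came from 1 fit of 18 libraries. Alternatives used limma-voom (limma 3.58.1), DESeq2 1.42.0, other scalings and filters, and left out each library. The fits were tested on simulated data. Replicate letters paired the AMO1 libraries, as deviations of same-letter libraries correlated at 0.427, 0.404 and 0.208, whereas in H929 all 3 were below 0 and in LP1 letter A gave 0.353 but B and D -0.131 and -0.173, so those lines were not taken as paired. Members and lists were chosen with earlier results of these data known. Named were the 7 genes, NEAT1, list genes past the threshold (at most 4 a list), pseudogenes with 10 reads and the 5 genes most like MDH1; other genes were named after their values were seen. Sequences came from hg38 with pysam 0.24.0, R 4.3.3 and Python 3.11.15.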

Additional observations from a re-analysis of the deposited data

How the results depend on the processing

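The difference in MDH1 kept its direction in all 14 other fits per line, at 0.84 to 0.90 on the log2 scale in AMO1 (0.84 with library size only), 0.72 to 0.80 in H929 and 0.21 to 0.33 in LP1. Of 252 other fits of the partners, 0 gave an adjusted p under 0.05, and the smallest, 0.0904, was that of MDH2 in AMO1 without gN1E replicate A. Partner values near 0 turned sign in 19 of these fits. In AMO1, GOT1 was at -0.027 with library size only, at -0.0021 with no filter and at -0.0046 to 0.025 with 1 library left out, GOT2 at -0.022 with library size only and at -0.014 to 0.033 with 1 left out, and SLC25A11 at 0.00065 with limma-voom and at -0.064 to 0.051 with 1 left out. In H929, MDH2 was at -0.052 to 0.04 with 1 left out. In LP1, GOT2 was at 0.018 with library size only, and with 1 left out GOT2 was at -0.049 to 0.032, SLC25A11 at -0.0069 to 0.081 and SLC25A13 at -0.011 to 0.094.

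The number of genes called moved more. The 473 of AMO1 became 176 when a call needed a 1.5-fold change and an adjusted p under 0.1, 808 with no filter, 1394 with the replicate block and 254 to 606 with 1 library left out (261 without SCR replicate D, 288 without gN1E replicate C, 254 without gN1E replicate D). The 1286 of H929 became 369 at the fold rule and 701 to 1272 with 1 left out (709 without SCR replicate A, 701 without gN1E replicate B). The 332 of LP1 became 102 at the fold rule, 512 with DESeq2, 700 with no filter and 87 to 780 with 1 left out (780 without SCR replicate D, 202 or fewer without any other). In H929 and LP1, where the letters did not pair the libraries, the replicate block gave 931 and 243 calls, with 361 in place of 231 for the difference between their effects, and it called no partner in any line. Among the 9 H929 list calls it lost IDH2, LDHA and PFKP, library size only lost ASS1, BCAT1, GPT2 and PFKP, the joint fit lost BCAT1, IDH2, LDHA and PFKP, and limma-voom lost PFKP.

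Among levels under the SCR label, the GOT2 difference between AMO1 and H929 passed the threshold at -0.15 with RLE size factors, -0.16 with library size only and -0.14 with limma-voom, and was -0.15 to -0.12 with 1 library left out, passing without gN1E replicate A of AMO1, SCR replicate A or D or gN1E replicate D of LP1, or gN1E replicate A or B of H929. The SLC25A12 difference between them missed it at 0.13 with library size only and was 0.12 to 0.18 with 1 left out, missing it without SCR replicate C or D of AMO1 or SCR replicate A or C of H929, and that of SLC25A11 was -0.086 to 0.026. Between AMO1 and LP1, MDH1 is given with no test. It was at -0.16 with RLE size factors, turned to 0.11 with library size only and was -0.13 to -0.10 with 1 left out. MDH2 passed there at -0.14 with RLE size factors, and with library size only it turned to 0.13 and passed as well. Between H929 and LP1, MDH1 turned to 0.06 with library size only. The causes were not tested. Of the 5 genes most like MDH1, 4 were among the first 5 by library size only. With 3 libraries a group, the 95% intervals of the partners bound their differences and do not show that these were 0.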
